A study of Rattus norvegicus with 8 samples.

Results

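The core circadian clock genes were followed in rat liver across chronic ethanol feeding, partial hepatectomy and inhibition of the microRNA miR-21. The set holds 10 genes: the activators Bmal1 (also called Arntl), Clock and Npas2, the repressors Per1, Per2, Per3, Cry1 and Cry2, and the REV-ERB genes Nr1d1 and Nr1d2. For each gene, probe sets that the platform table names for that gene alone were taken, and the brightest over all arrays was kept. This gave 1 probe set for each of 9 genes; no probe set is named for Nr1d2 alone, so Nr1d2 is not described. The 9 genes are among 18166 genes named in this way and among the 8690 whose mean log2 level over the 8 arrays reached 5 and which were tested.

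Liver came from male Sprague-Dawley rats, an outbred strain, on 8 Affymetrix arrays that cross diet, treatment and time, with 1 array in each group. The groups were ethanol-fed rats given AM21, ethanol-fed untreated rats, pair-fed rats given AM21 and pair-fed untreated rats, labelled EtOH or CHO (the carbohydrate diet) by diet. Each was sampled at 70% partial hepatectomy (PHx, removal of most of the liver) at 0 h and again 24 h later. AM21, an antisense oligonucleotide against miR-21 with locked nucleic acid bases, was injected intraperitoneally at 7.5 mg/kg, first 72 h before PHx and again directly after it. All rats were operated on, and no sham-operated rats or rats given a control oligonucleotide were analysed here. Each array holds pooled RNA of 3 rats (AM21) or 4 rats (untreated), so differences between single rats were averaged out. The same animals gave the 0 h and 24 h tissue of a pool. AM21 and untreated rats carry separate ranges of animal numbers, so that treatment and cohort cannot be told apart. Neither the hours of lighting and feeding nor the time of day of tissue collection is given in the sources used here. Since clock transcripts cycle over the day, a difference in the hour of collection and a difference in clock gene expression cannot be told apart from these labels.

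In mammalian liver, BMAL1 pairs with CLOCK or its relative NPAS2 and activates genes that carry E-box sequences. Among these are the Per and Cry genes, whose proteins return to the nucleus and repress BMAL1 and CLOCK, and Nr1d1, which encodes REV-ERB alpha, a nuclear receptor that represses Bmal1. In a cycling liver Bmal1 and its partners therefore peak at another phase of the day than Per and Nr1d1. Feeding hours are a strong timing cue for the liver clock.

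The DNA around the starts of these genes was searched for sequence elements known from this loop. Windows from 250 bases before to 50 bases after each annotated start were taken from RefSeq (assembly GRCr8), which held 11 windows for 9 of the 10 genes and none for Cry1. Both strands were searched for the E-box CACGTG, its variant CACGTT, the D-box TTANGTAA bound by DBP and NFIL3, and the sites TAGGTCA and TGGGTCA bound by ROR and REV-ERB receptors. The windows of Bmal1, Per2 and Nr1d1 are printed because these genes stand for the activator, repressor and REV-ERB sides of the results, with the matches in capitals. They lie at chr1:176766078-176766377 (Bmal1, plus strand), chr9:99496944-99497243 (Per2, minus strand) and chr10:84229405-84229704 (the second of 2 windows of Nr1d1, minus strand).
Bmal1: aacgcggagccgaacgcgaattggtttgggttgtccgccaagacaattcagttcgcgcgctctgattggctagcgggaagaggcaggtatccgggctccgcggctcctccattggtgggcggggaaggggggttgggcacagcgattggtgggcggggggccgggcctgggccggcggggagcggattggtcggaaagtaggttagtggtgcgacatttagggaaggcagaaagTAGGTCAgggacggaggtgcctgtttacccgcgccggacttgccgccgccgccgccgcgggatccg
Per2: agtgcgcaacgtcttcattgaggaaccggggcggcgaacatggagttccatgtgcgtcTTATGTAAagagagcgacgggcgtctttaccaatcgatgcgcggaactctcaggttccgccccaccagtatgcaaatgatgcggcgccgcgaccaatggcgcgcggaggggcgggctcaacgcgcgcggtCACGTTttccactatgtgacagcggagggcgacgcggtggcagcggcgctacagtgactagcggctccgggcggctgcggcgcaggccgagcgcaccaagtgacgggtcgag
Nr1d1: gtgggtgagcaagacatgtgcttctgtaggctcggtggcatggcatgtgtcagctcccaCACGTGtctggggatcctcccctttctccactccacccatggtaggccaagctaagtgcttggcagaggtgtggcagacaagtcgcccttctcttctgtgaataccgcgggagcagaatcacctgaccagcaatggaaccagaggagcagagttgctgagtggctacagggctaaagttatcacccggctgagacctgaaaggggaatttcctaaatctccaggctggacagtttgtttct
The TAGGTCA of Bmal1 begins 16 bases before the start, and 2.63% of all 33469 windows in the table hold this element. Per2 has TTATGTAA, a form of the D-box, 192 bases before the start, and CACGTT 62 bases before it. The D-box is found in 2.24% of all windows and CACGTT in 4.83%. The Nr1d1 window has CACGTG 191 bases before the start; it is 1 of 11 clock gene windows with this E-box, against 6.42% of all windows. CACGTT was also matched in the other Nr1d1 window and in Cry2, and TGGGTCA, held by 4.09% of all windows, in none of the 11. The windows of Clock, Npas2, Per1, Per3 and Nr1d2 held none of the searched elements. A match is a description of the letters and not evidence of binding.

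The target of AM21 is the mature microRNA rno-miR-21-5p, encoded at chr10:71902653-71902674 on the minus strand of GRCr8. It is shown, with its seed (bases 2 to 8) in capitals, because it is the molecule whose inhibition the AM21 comparison tests.
rno-miR-21-5p: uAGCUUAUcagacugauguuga

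Across the 8 arrays, levels are RMA values on the log2 scale and are compared here within a gene and not between genes. Bmal1 varied most, over a range of 3.27 from its lowest to its highest array, followed by Nr1d1 (2.87), Per2 (2.24) and Per3 (2.09). The other 5 genes varied by between 1.20 (Per1) and 1.40 (Cry2). RMA gives no detection call, and levels under 5 are not shown to be above background: this holds for 5 of 8 arrays of Per3, 1 of Per2 and 1 of Bmal1, so the sizes of their differences are uncertain.

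The first comparison asked what chronic ethanol feeding did to the 2 arms of the clock at 0 h, before any liver was removed. In ethanol-fed livers the repressors Per2 and Per3 were lower than in pair-fed livers, by 3.33-fold and 3.60-fold. All 3 activators had higher values in ethanol-fed livers in both treatments, though none passed the test. Per1 and Nr1d1 had lower values there, while Cry1 went in opposite directions in the AM21 and untreated arrays. The diet difference in the activators had a median of 0.81 and in the 5 repressors a median of -0.46, beside a median of 0.02 over all tested genes.

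Bmal1, the subunit without which the liver clock does not cycle, had a log2 level of 7.19 (AM21) and 7.53 (untreated) in ethanol-fed livers at 0 h, against 5.94 (AM21) and 4.26 (untreated) in pair-fed livers. The diets did not overlap, and the lowest value was that of the pair-fed untreated array. The fitted difference, ethanol-fed minus pair-fed, was 2.26 ± 0.42 (SE), or 4.79-fold, and did not pass over all genes (limma adjusted p = 0.0708). Its size depended on the pair of arrays, with a difference of 1.26 between the AM21 arrays and 3.27 between the untreated arrays. The adjusted p was 0.187 with no level minimum, 0.0920 with quantile normalization and 0.235 without either of the untreated 0 h arrays. It was 0.0493 with the 0 h arrays alone, 0.0241 with a mean-variance trend and 0.0278 without either of the AM21 0 h arrays. Leaving out an array of 0 h makes the 0 h difference one between 1 array per diet, with its spread taken from the 24 h arrays.

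Clock, which encodes the partner of BMAL1, had levels of 8.20 (AM21) and 8.32 (untreated) in ethanol-fed livers, against 7.80 (AM21) and 7.10 (untreated) in pair-fed livers. The difference of 0.81 ± 0.21 did not pass (adjusted p = 0.130). Npas2, which can replace CLOCK, stood at 6.58 (AM21) and 6.32 (untreated) in ethanol-fed livers, against 6.13 (AM21) and 5.20 (untreated) in pair-fed livers (0.79 ± 0.29, adjusted p = 0.237). As for Bmal1, the pair-fed untreated array was the lowest of the 4 for both genes.

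Per2, the repressor whose loss shortens or abolishes rhythms in mice, had levels of 4.56 (AM21) and 5.33 (untreated) in ethanol-fed livers, against 6.80 (AM21) and 6.56 (untreated) in pair-fed livers. The ethanol-fed values lay more than 1 log2 unit below the pair-fed values, and the difference of -1.73 ± 0.26 passed (adjusted p = 0.0448). Per3, a paralog with a lesser role in keeping time, had levels of 4.73 (AM21) and 4.71 (untreated) in ethanol-fed livers, against 6.34 (AM21) and 6.80 (untreated) in pair-fed livers. Its difference was -1.85 ± 0.20 and passed (adjusted p = 0.0214). Neither call held when any 1 of the 4 arrays of that time was left out: the adjusted p was then 0.105 or 0.140 for Per2 and 0.0523 or 0.217 for Per3, while the differences stayed between -2.24 and -1.23 for Per2 and between -2.09 and -1.61 for Per3. Quantile normalization, or testing with no level minimum, also ended both calls, with adjusted p of 0.0641 and 0.141 for Per2 and of 0.0667 and 0.0779 for Per3.

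Per1, the third Period gene, had levels of 6.25 (AM21) and 6.07 (untreated) in ethanol-fed livers, against 6.58 (AM21) and 6.67 (untreated) in pair-fed livers. This was a narrower gap than in Per2 or Per3 and did not pass (-0.46 ± 0.14, adjusted p = 0.178). Nr1d1 had levels of 8.75 (AM21) and 6.99 (untreated) in ethanol-fed livers, against 9.53 (AM21) and 9.52 (untreated) in pair-fed livers. The pair-fed arrays lay within 0.01 of each other while the ethanol-fed arrays were 1.76 apart, and the difference of -1.66 ± 0.44 did not pass (adjusted p = 0.141).

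The cryptochromes bind and block CLOCK and BMAL1. Cry1 had levels of 5.38 (AM21) and 6.52 (untreated) in ethanol-fed livers, against 6.09 (AM21) and 5.62 (untreated) in pair-fed livers, with a fitted difference of 0.09 ± 0.40. Cry2 had levels of 5.86 (AM21) and 6.72 (untreated) in ethanol-fed livers, against 6.18 (AM21) and 6.97 (untreated) in pair-fed livers (-0.29 ± 0.17). In both genes the diets overlapped and neither passed. Cry1 took opposite signs in the matched pairs, with differences of -0.72 (AM21) and 0.90 (untreated). Cry2 was lower in ethanol-fed livers in both pairs, as the Period genes were, with differences of -0.31 (AM21) and -0.26 (untreated).

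Of the 9 genes, 7 did not overlap between the diets at 0 h: the 3 activators were higher and Per1, Per2, Per3 and Nr1d1 lower in ethanol-fed livers. Over all tested genes, 26.6% were higher and 19.6% lower without overlap. Of the 9 genes 2 were called, both lower, where 0.265% of all tested genes were called lower and 0.598% higher. At an unadjusted p under 0.05 there were 7 of the 9 genes, and 1456 of all 8690.

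**Figure D1:**
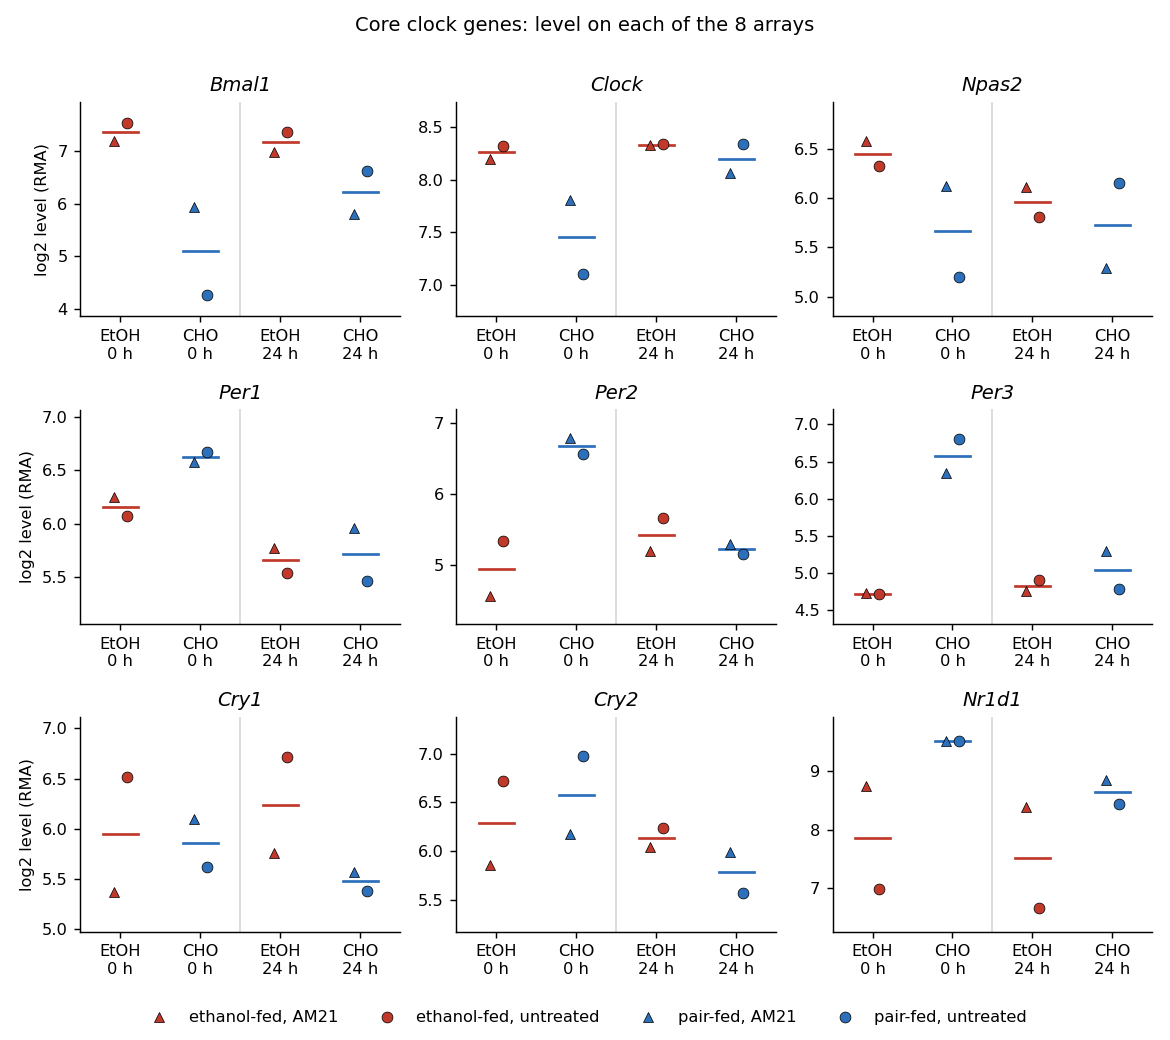
Log2 level (RMA) of each of the 9 measured clock genes on each of the 8 arrays, with ethanol-fed (EtOH, red) and pair-fed (CHO, blue) livers at 0 h and 24 h after PHx. Triangles are AM21 arrays, circles untreated arrays and bars the mean of both; at 0 h the diets do not overlap for Bmal1, Clock, Npas2, Per1, Per2, Per3 and Nr1d1.

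At 24 h after PHx the same comparison gave 0 calls among the 9 genes and 0% among all tested genes; 1 of the 9 genes, Nr1d1, and 1003 of all genes had an unadjusted p under 0.05. The median diet difference was 0.24 over the activators and 0.20 over the repressors. Bmal1 had levels of 6.99 (AM21) and 7.35 (untreated) in ethanol-fed livers, against 5.81 (AM21) and 6.63 (untreated) in pair-fed livers, and its difference of 0.95 ± 0.42 did not pass (adjusted p = 0.448). Nr1d1 had levels of 8.40 (AM21) and 6.66 (untreated) in ethanol-fed livers, against 8.85 (AM21) and 8.45 (untreated) in pair-fed livers (-1.12 ± 0.44, adjusted p = 0.397). These 2 genes kept diets that did not overlap, Bmal1 higher and Nr1d1 lower in ethanol-fed livers, as at 0 h.

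The Period genes had lost their separation by diet at 24 h. Per2 had levels of 5.20 (AM21) and 5.66 (untreated) in ethanol-fed livers, against 5.30 (AM21) and 5.16 (untreated) in pair-fed livers (0.20 ± 0.26). Per3 had levels of 4.76 (AM21) and 4.91 (untreated) in ethanol-fed livers, against 5.30 (AM21) and 4.78 (untreated) in pair-fed livers (-0.21 ± 0.20). Per1, with a difference of -0.05 ± 0.14, overlapped between the diets too.

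Among the other members, Clock stood at 8.33 (AM21) and 8.34 (untreated) in ethanol-fed livers, against 8.06 (AM21) and 8.34 (untreated) in pair-fed livers, and Npas2 overlapped between the diets as well. Cry1 and Cry2 were higher without overlap in ethanol-fed livers but did not pass (0.76 ± 0.40 and 0.36 ± 0.17, adjusted p = 0.540 and 0.481). Of the 9 genes 3 were thus higher without overlap and 1 lower, beside 23.4% and 19% of all tested genes. Averaged over both times in an additive fit, 0 of the 9 genes passed, beside 0.38% of all genes called higher and 0.0806% called lower. Nr1d1 came nearest (-1.39 ± 0.30, adjusted p = 0.0967) and was lower in ethanol-fed livers in 4 of 4 matched pairs of arrays. Bmal1 (1.61 ± 0.42, adjusted p = 0.143) was higher in 4 of 4. These pairs are the AM21 and the untreated pools, each sampled at both times, so they are not 4 replicates. How many of all tested genes did so was not counted.

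**Figure D2:**
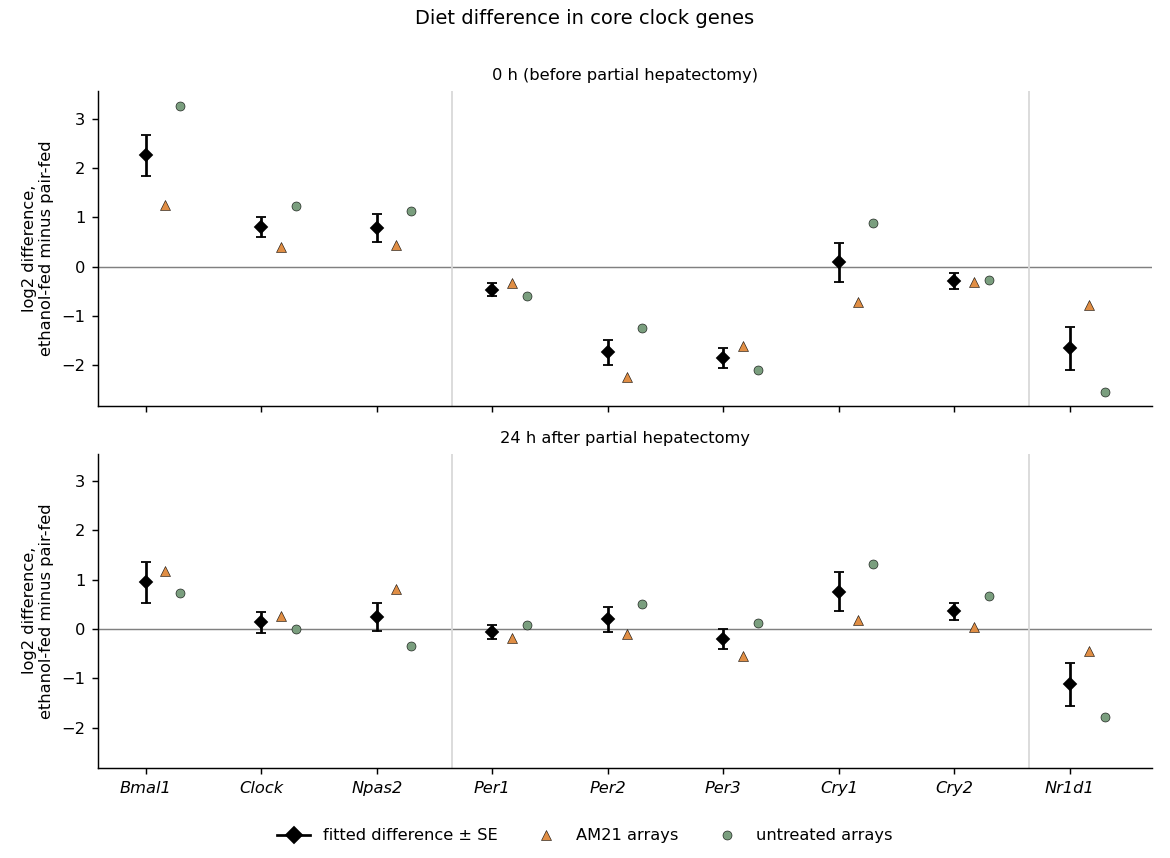
Diet difference (log2, ethanol-fed minus pair-fed) of the 9 clock genes at 0 h (upper panel) and 24 h after PHx (lower panel). Diamonds with bars are the fitted difference ± SE, triangles the difference between the AM21 arrays and circles that between the untreated arrays; Per2 and Per3 lie at -1.73 and -1.85 at 0 h and near 0 at 24 h.

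Whether the diet difference itself changed between 0 h and 24 h was tested as the difference of the PHx response between diets. The change over 24 h had values of 0.64 (AM21) and 0.32 (untreated) for Per2 in the ethanol-fed pools, against -1.50 (AM21) and -1.41 (untreated) in the pair-fed pools. Per2 was lower at 24 h than at 0 h in both pair-fed pools and higher in both ethanol-fed pools. The ethanol-fed AM21 pool began at 4.56, under 5, so the size of its rise is uncertain. The response differed by 1.93 ± 0.21 (ethanol-fed minus pair-fed, adjusted p = 0.00971). The call was lost with no level minimum (adjusted p = 0.0787), with quantile normalization (0.145) and in a fit with this interaction alone (0.109), with differences between 1.88 and 1.93.

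Per3 changed by 0.02 (AM21) and 0.19 (untreated) in the ethanol-fed pools, against -1.04 (AM21) and -2.02 (untreated) in the pair-fed pools, and narrowly did not pass (1.64 ± 0.28, adjusted p = 0.0584). Its levels in ethanol-fed livers were under 5 at both times, so that a fall there could not have been seen. Bmal1 changed by -0.20 (AM21) and -0.18 (untreated) in the ethanol-fed pools, against -0.13 (AM21) and 2.36 (untreated) in the pair-fed pools (-1.31 ± 0.48, adjusted p = 0.351). A higher level of Bmal1 at 24 h was thus found in 1 of 4 pools, the pair-fed untreated one, which also had the highest changes in Clock (1.24) and Npas2 (0.96).

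The fitted difference in response was negative for all 3 activators and positive for all 6 other measured genes. Its median was -0.68 over the activators and 0.65 over the others, beside 0.00 over all tested genes. For the activators this came from the untreated pools, with median changes of -0.18 (ethanol-fed) and 1.24 (pair-fed). In the AM21 pools the activator medians were -0.20 and -0.13, and Npas2 went the other way (-0.47 ethanol-fed, -0.84 pair-fed). The repressor medians were 0.18 (AM21) and 0.19 (untreated) in the ethanol-fed pools, against -0.61 and -1.40 in the pair-fed pools. Of the 9 genes, 7 had an unadjusted p under 0.05, as did 943 of all genes, and 1 gene, Per2, was called. Over all tested genes 0.069% were called in the direction of Per2 and 0.46% in the other. This comparison uses the same arrays as the diet comparisons at each time, so its values are not separate support for them.

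**Figure D3:**
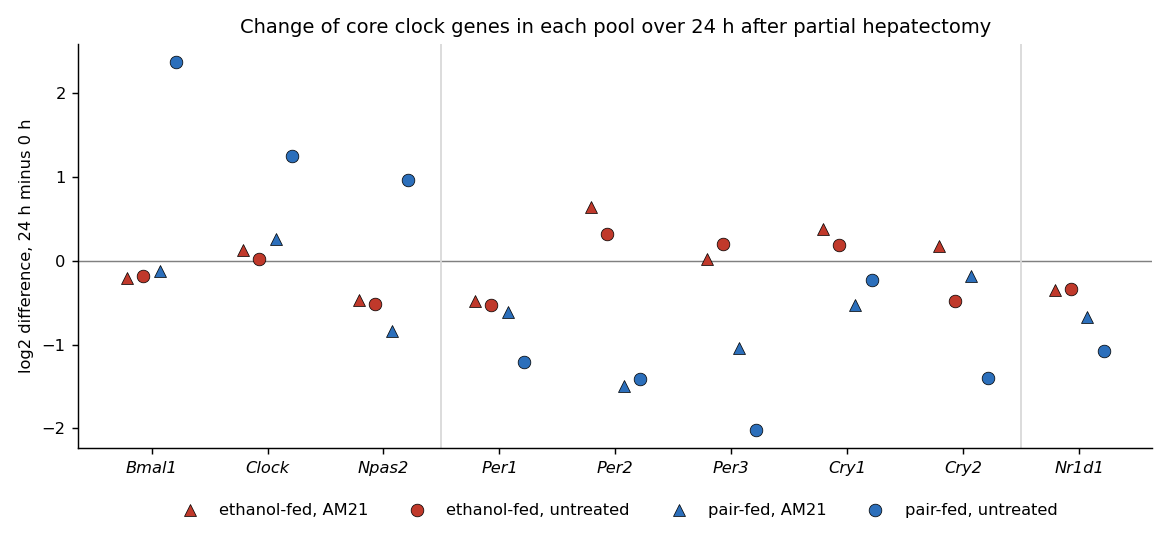
Change of each clock gene (log2, 24 h minus 0 h) in each of the 4 pools. Red symbols are ethanol-fed and blue pair-fed, triangles AM21 and circles untreated; for Per2 the ethanol-fed pools lie at 0.64 and 0.32 and the pair-fed pools at -1.50 and -1.41, and for Bmal1 the pair-fed untreated pool at 2.36 stands apart.

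Averaged over the 4 pools, Per1 and Nr1d1 fell after PHx. Per1, an early-responding Period gene, was lower at 24 h than at 0 h in 4 of 4 pools, by 0.48 to 1.20. Its levels at 24 h were 5.78 and 5.54 in the ethanol-fed pools (AM21 and untreated) and 5.96 and 5.46 in the pair-fed pools, all below the lowest 0 h level of 6.07. The fitted change was -0.70 ± 0.14 (adjusted p = 0.0123). Nr1d1 was lower in 4 of 4 pools as well, by 0.33 and 0.35 in the ethanol-fed pools and by 1.07 and 0.68 in the pair-fed pools (-0.61 ± 0.14, adjusted p = 0.0216). Its call was lost without the pair-fed AM21 pool (adjusted p = 0.0737) and without the pool as a block (0.170). A fall in every pool was seen in 22.8% of all tested genes. How many had all 24 h levels below all 0 h levels, as Per1 did, was not counted. Over the same 24 h, markers of dividing cells (5 of 5) and of neutrophils and monocytes (2 of 3) rose. Markers of sinusoidal endothelial cells (2 of 4) and lymphocytes (1 of 1) fell. Stellate markers (3 of 5 lower, 1 higher) and Kupffer cell and macrophage markers (2 of 8 lower, 1 higher) went both ways. Calls with PHx covered 15.3% (higher) and 12.8% (lower) of all tested genes. The part of these cell types in the changes of Per1 and Nr1d1 was not tested.

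The other 7 clock genes did not pass. Per3 (-0.71 ± 0.35), Per2 (-0.49 ± 0.39) and Cry2 (-0.47 ± 0.24) had negative averages, Clock (0.41 ± 0.21) a positive one, and Npas2 (-0.21) and Cry1 (-0.05) values near 0. Clock changed by 1.24 in the pair-fed untreated pool and by 0.01 to 0.26 in the others. Its average was 0.13 without the pair-fed untreated pool. Bmal1 (0.46 ± 0.43) turned to -0.17 without the pair-fed untreated pool. Without that pool Npas2 passed, at -0.61 (adjusted p = 0.0236). Of the 9 genes 2 were called lower and 0 higher, where 12.8% of all tested genes were called lower and 15.3% higher. With no sham-operated rats, the effects of PHx, surgery and elapsed time cannot be told apart.

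Genes of the second loop and the related D-box factors were read from a list of 10, of which 8 had a probe set and 5 were tested. Dbp, a D-box activator that BMAL1 and CLOCK drive through E-boxes, had levels at 0 h of 6.31 (AM21) and 6.04 (untreated) in ethanol-fed livers, against 8.53 (AM21) and 8.75 (untreated) in pair-fed livers. Its diet difference was -2.46 ± 0.24 (adjusted p = 0.0175). Nfil3, the D-box repressor that opposes DBP, had levels of 7.51 (AM21) and 7.60 (untreated) in ethanol-fed livers, against 6.77 (AM21) and 6.46 (untreated) in pair-fed livers (0.94 ± 0.14, adjusted p = 0.0482). Both calls were lost when any 1 of the 4 arrays at 0 h was left out (adjusted p up to 0.199 for Dbp and 0.282 for Nfil3) and with no level minimum (0.0690 and 0.171); that of Nfil3 was also lost under quantile normalization (0.0667), with the mean of a gene's probe sets (0.0505) and with the 0 h arrays alone (0.0501).

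Tef, another D-box activator, had a diet difference at 0 h of -0.88 ± 0.14 (adjusted p = 0.0524). At 24 h 0 of the 5 were called, and Dbp stood at -0.76 ± 0.24 (adjusted p = 0.280). With PHx 2 of the 5 fell, Bhlhe40, which encodes the E-box repressor DEC1, and Tef, which fell by 0.81 ± 0.21 (adjusted p = 0.0328). Of all tested genes 12.8% were called lower with PHx. The call of Tef was lost in 3 of the 4 fits without 1 pool (adjusted p up to 0.113) and with no level minimum (0.0561).

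**Figure D4:**
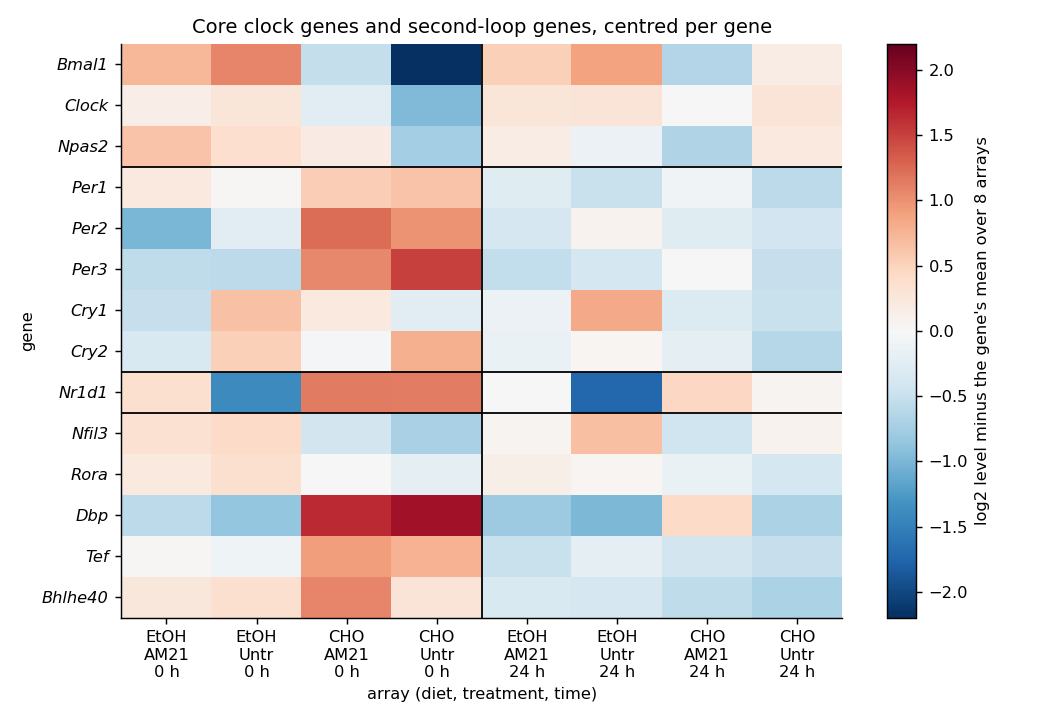
Log2 level minus the gene's mean over the 8 arrays (colour, red above and blue below) for the 3 activators, 5 repressors, Nr1d1 and 5 second-loop genes (rows) on the 8 arrays (columns, ethanol-fed left of pair-fed at each time). The pair-fed arrays at 0 h have the highest values of Per2, Per3, Nr1d1, Dbp and Tef, and the pair-fed untreated array at 0 h has the lowest value of Bmal1 (-2.20).

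Of 22 kinases, ligases and cofactors of the clock, 18 were tested. With diet at either time and with AM21 0 of the 18 were called. With PHx 1 rose, Timeless (1.06 ± 0.14, adjusted p = 0.0038), whose product also works at replication forks. Prkaa2 (-0.58 ± 0.09, adjusted p = 0.0066), a catalytic subunit of the energy sensor AMPK, was the 1 that fell. Of all tested genes 15.3% were called higher and 12.8% lower with PHx. Usp2, a deubiquitinase whose transcript is rhythmic in mouse liver, responded differently to PHx by diet. It had levels at 0 h of 5.74 (AM21) and 6.25 (untreated) in ethanol-fed livers, against 7.21 (AM21) and 7.44 (untreated) in pair-fed livers, and at 24 h of 6.19 and 6.47 against 6.35 and 5.66. This is the pattern of Per2, with low values in ethanol-fed livers at 0 h and no separation at 24 h. The response differed by 1.65 ± 0.23 (adjusted p = 0.0268), a call lost with no level minimum (adjusted p = 0.154), with a minimum of 6 (0.0653), with quantile normalization (0.295) and with this interaction alone (0.367).

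Of 19 rhythmic or clock-driven liver genes, 16 were tested and 0 were called by diet at either time or by AM21. With PHx 2 rose and 5 fell, where 15.3% of all tested genes were called higher and 12.8% lower. Wee1, a kinase that restrains mitosis, rose by 1.31 ± 0.27 (adjusted p = 0.0135), and Tfrc, the transferrin receptor, by 1.00 ± 0.13. The falls were Rgs16, Lpin1, the uridine phosphorylase Upp2 (-1.69 ± 0.29), the glucocorticoid-induced gene Tsc22d3 (-1.36 ± 0.12) and Pck1 (-0.48 ± 0.09), the gluconeogenic enzyme. The calls of Wee1 and Pck1 were lost without 1 pool (adjusted p = 0.0568 for Wee1 without the pair-fed AM21 pool, and 0.0587 and 0.0577 for Pck1 without either ethanol-fed pool). Among the genes of the 3 lists that were not tested were Hlf, Fbxl21, Sirt1, Tipin, Alas1 and G6pc1, for which no probe set carried the name alone, and Bhlhe41, Ciart, Rorb and Elovl3, which were under the level minimum.

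The third question was whether AM21 changed either arm. With AM21 0 of the 9 genes were called at 0 h, at 24 h, averaged over time, or as a difference of the PHx response, and 0% of all tested genes were called in each of these 4 comparisons. At an unadjusted p under 0.05 there were 471, 636, 538 and 604 of all genes, and 1, 2, 1 and 2 of the 9 clock genes. With 2 arrays per treatment at each time, a difference that misses the threshold is not shown to be absent.

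Cry2 at 0 h had levels of 5.86 (ethanol-fed) and 6.18 (pair-fed) with AM21, against 6.72 (ethanol-fed) and 6.97 (pair-fed) in untreated livers. The AM21 arrays were lower in both diets by about the same amount, and the difference of -0.83 ± 0.17 did not pass (adjusted p = 0.658). At 24 h the levels of Cry2 were 6.04 and 5.99 with AM21, against 6.24 and 5.57 untreated (0.11 ± 0.17). The PHx response of Cry2 differed by 0.94 ± 0.22 between AM21 and untreated pools without passing (adjusted p = 0.344).

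Nr1d1 had a difference of 0.88 ± 0.44 at 0 h and 1.07 ± 0.44 at 24 h (AM21 minus untreated, adjusted p = 0.849 and 0.676). It was higher with AM21 in 4 of 4 pairs over both times (0.98 ± 0.30 on average, adjusted p = 0.763). These pairs are the ethanol-fed and the pair-fed pools, each sampled at both times, so they are not 4 replicates. The share of all tested genes that were higher with AM21 in every pair was not counted. In ethanol-fed livers the AM21 minus untreated difference of Nr1d1 was 1.76 at 0 h and 1.74 at 24 h, and in pair-fed livers it was 0.01 and 0.41. Each diet and treatment is 1 pool, so this contrast between the diets has no replicate check. The 2 lowest levels of Nr1d1 on any array, 6.99 at 0 h and 6.66 at 24 h, were both those of the ethanol-fed untreated pool.

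Cry1 in ethanol-fed livers was lower in the AM21 pool by 1.14 at 0 h and by 0.95 at 24 h, while in pair-fed livers the differences were 0.47 and 0.18. Bmal1 differed with AM21 by -0.34 at 0 h and -0.36 at 24 h in ethanol-fed livers, and by 1.67 at 0 h and -0.82 at 24 h in pair-fed livers, so its direction in pair-fed livers turned between the times. Per1 at 24 h was the 1 clock gene with all AM21 values above the untreated ones (0.37 ± 0.14, adjusted p = 0.654), Clock at 24 h and Cry2 at 0 h the ones with all AM21 values below. Over all tested genes 11.2% were higher and 15.2% lower without overlap at 0 h, and 9.08% and 26.2% at 24 h.

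The median AM21 difference of the activators was 0.59 at 0 h and -0.28 at 24 h, and that of the repressors -0.27 and 0.11. Over all tested genes it was -0.01 and -0.06. Over both diets, neither arm kept its sign from 0 h to 24 h. The turn was in the pair-fed livers, with medians of 0.93 and then -0.82 for the activators and -0.09 and then 0.42 for the repressors. In ethanol-fed livers the medians were -0.12 and then -0.01, a value near 0, for the activators. For the repressors they were -0.77 and then -0.19. Npas2 was higher with AM21 there at both times (0.25 and 0.30). Bmal1 (-0.34 and -0.36) and Clock (-0.12 and -0.01) were lower. In the lists of second-loop genes, cofactors and rhythmic genes 0 genes were called with AM21.

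**Figure D5:**
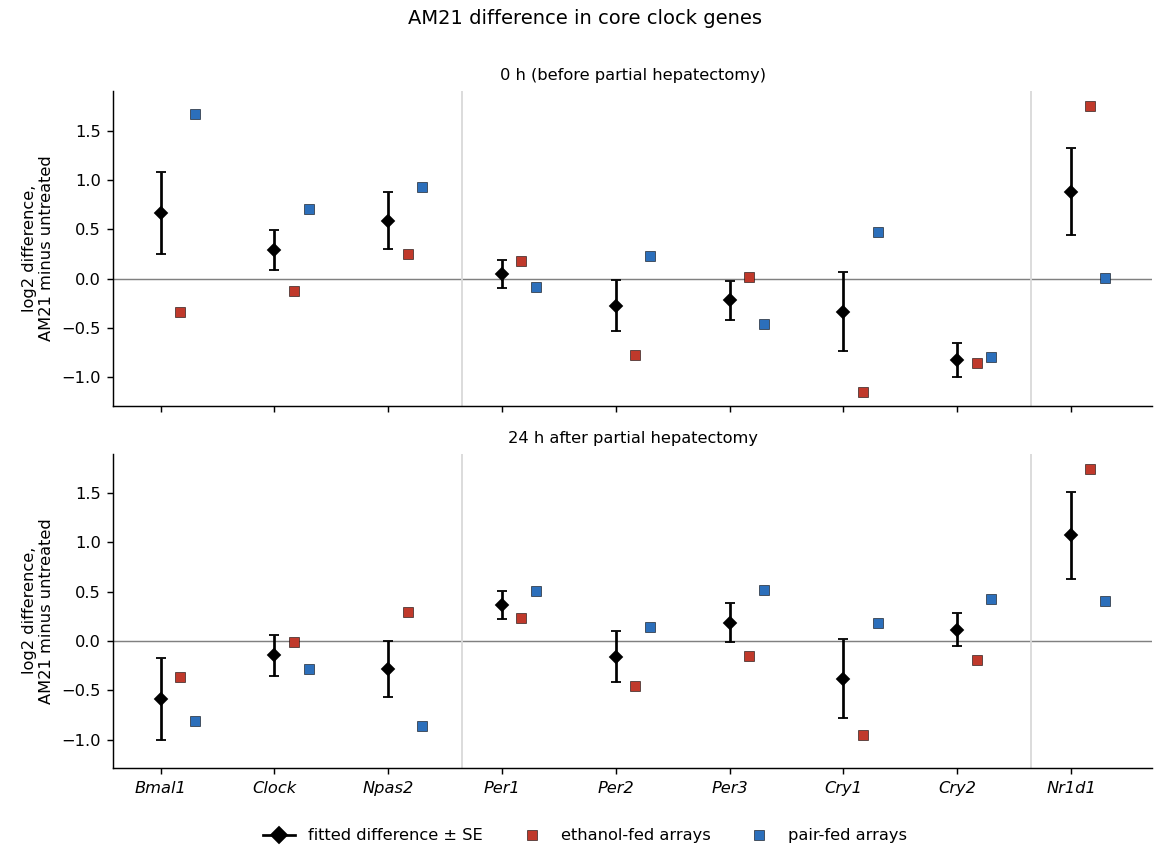
AM21 difference (log2, AM21 minus untreated) of the 9 clock genes at 0 h (upper panel) and 24 h after PHx (lower panel). Diamonds with bars are the fitted difference ± SE, red squares the difference within ethanol-fed livers and blue squares that within pair-fed livers; for Nr1d1 the ethanol-fed squares lie at 1.76 and 1.74 and the pair-fed squares at 0.01 and 0.41.

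Over the 8 arrays, the genes whose levels ran most alike to Bmal1 were Atl3 (Pearson r = 0.995), Idh3b (0.993), a subunit of mitochondrial isocitrate dehydrogenase, and Cldn1 (0.984), a tight junction protein. Cldn1 had levels at 0 h of 8.83 (AM21) and 9.07 (untreated) in ethanol-fed livers, against 7.55 (AM21) and 6.32 (untreated) in pair-fed livers, and at 24 h of 8.58 and 8.83 against 7.96 and 8.51. Its lowest array was thus that of Bmal1, the pair-fed untreated array at 0 h. The genes most opposed to Bmal1 were Rbbp4 (-0.982), Fhip2a (-0.964) and Fkbp2 (-0.956). Within the clock, r with Bmal1 was 0.93 for Clock, 0.77 for Npas2, -0.90 for Per3 and -0.76 for Nr1d1. It was -0.67 for Per2, -0.62 for Per1 and -0.41 for Cry2, while the repressor Cry1 had a positive r of 0.40.

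The genes running most alike to Nr1d1 were Patel14l3 (0.949), Fbxl15 (0.937) and Zdhhc23 (0.925), and the most opposed Ckb (-0.971), the brain-type creatine kinase, Spi1 (-0.961), a transcription factor of macrophages, and Clip1 (-0.960). These coefficients were ranked over all tested genes and describe 8 arrays that share 4 pools, 2 times and 2 diets, so they are not independent points.

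Cell type markers were read beside these results, since in whole tissue fewer cells of a type and less RNA per cell cannot be told apart. The 5 measured hepatocyte markers had a mean level of 11.31 to 11.45 on every array. The 8 Kupffer cell and macrophage markers averaged 8.04 to 8.06 in ethanol-fed livers at 0 h, against 7.55 to 7.66 in pair-fed livers, and 7.95 to 8.06 against 7.41 to 7.56 at 24 h, with 0 of 8 called by diet at either time. The 5 markers of dividing cells averaged 5.37 to 5.93 in ethanol-fed livers at 0 h, against 4.44 to 4.67 in pair-fed livers (2 of 5 called higher), and 7.98 to 8.11 against 8.31 to 9.10 at 24 h. By diet at 0 h, 0.598% of all tested genes were called higher. With PHx all 5 dividing cell markers rose, where 15.3% of all tested genes were called higher and 12.8% lower. The 4 sinusoidal endothelial markers averaged 7.57 to 7.75 in ethanol-fed livers at 0 h, against 7.12 to 7.44 in pair-fed livers, and 7.23 to 7.34 against 6.90 to 6.99 at 24 h. For these endothelial markers the diets did not overlap at either time, as for the Kupffer cell and dividing cell markers. Among single tested genes, 26.6% were higher and 19.6% lower in ethanol-fed livers without overlap at 0 h, and 23.4% and 19% at 24 h. The endothelial markers had median differences of 0.40 and 0.35, and with PHx 2 of the 4 fell. The stellate cell and fibroblast markers averaged 6.26 to 6.35 in ethanol-fed livers at 0 h, against 6.06 to 6.24 in pair-fed livers, and overlapped at 24 h. With PHx 1 of their 5 tested markers rose and 3 fell, with a median change of -0.49.

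The neutrophil and monocyte markers averaged 5.75 to 6.38 in ethanol-fed and 5.27 to 6.27 in pair-fed livers at 24 h, and 4.84 to 4.96 in ethanol-fed and 4.67 to 4.96 in pair-fed livers at 0 h. Of their 3 tested members 2 rose with PHx, with a median change of 2.01. Of the 8 Kupffer cell and macrophage markers 1 rose and 2 fell with PHx, and the 1 tested lymphocyte marker fell. Beside these counts, 15.3% of all tested genes were called higher and 12.8% lower with PHx. The endothelial, stellate, neutrophil, cholangiocyte and lymphocyte lists gave 0 calls by diet at either time, and none of the 4 erythroid markers had a probe set of its own name. The part of these cell types in the clock gene differences was not tested.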

How the data were processed

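The deposited values are log2 intensities that, per the submitters' processing notes, the authors made with RMA (tool: Affymetrix Expression Console; versions not given in the sources used here). RMA draws the arrays' distributions together and hides a shift common to most genes. Of 36685 probe sets, 18511 have 1 symbol, 575 several and 17599 none in the platform table, and 18394 were matched to RefSeq (GRCr8). The arrays' values ran from 0.481 to 13.3 with medians of 4.11 to 4.23. Precision is limited by the small number of pools, since arrays carry no read depth.

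All tests used limma 3.58.1 in R 4.3.3 with Benjamini-Hochberg adjustment over 8690 genes and a threshold of 0.05. The PHx response had the pool as a fixed block, since identical animal numbers in the labels pair the 0 h and 24 h arrays. Diet and AM21 at each time came from 1 fit of 6 coefficients (2 residual degrees of freedom), whose spread is the difference between diet effects in AM21 and untreated pools. This fit had no term for the pool, so its p-values treat the 0 h and 24 h arrays of 1 pool as independent. Averages over time used an additive fit in which a negative consensus correlation within pools (-0.371) was set to 0, so p-values there treat arrays of 1 pool as independent. Interactions with PHx leave 1 residual degree of freedom. Fits were tested on simulated data.

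The clock genes, the 3 lists of related genes and the 9 marker lists were chosen with earlier results of these data known. All clock genes were named; of the lists, up to 4 genes each with the smallest p among those that passed a test, and for Bmal1 and Nr1d1 the 3 most alike and 3 most opposed genes. Wee1, Upp2 and Pck1, which also passed, were added after their values were seen. Alternatives were the level minimum, quantile normalization, a mean-variance trend, the mean of probe sets, other models and leaving out each array or pool.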

Additional observations from a re-analysis of the deposited data

Results flagged for a closer look

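Per2 and Usp2 are listed here because their response to PHx was called different between the diets in a test of the difference itself. For Per2 the response differed by 1.93 ± 0.21 (ethanol-fed minus pair-fed, limma adjusted p = 0.00971), with changes of 0.64 and 0.32 in the ethanol-fed pools and of -1.50 and -1.41 in the pair-fed pools (AM21 and untreated). For Usp2 it differed by 1.65 ± 0.23 (adjusted p = 0.0268). The fit leaves 1 residual degree of freedom.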

How the results depend on the processing

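The direction of every called clock gene difference was kept under all alternatives run; calls were not. Of the 9 clock genes, 2 were called by diet at 0 h, against 0 with no level minimum, with a minimum of 6 (where Per2 and Per3 are no longer tested) and with quantile normalization, and 0 to 3 with 1 array left out. Averaged over time, 4 were called by diet and 1 by AM21 in a model with all 2-way interactions, against 0 and 0. The PHx response called 2, against 1 with no replicate block and 1 to 3 with 1 pool left out. Its difference between diets called 1 gene, against 2 with a mean-variance trend and 0 with no level minimum, a minimum of 6, quantile normalization or this interaction alone. At 24 h by diet, and by AM21 at each time or averaged, leaving out arrays gave 0 to 0. The interactions leave no residual degrees of freedom once an array is left out, so this was not run for them. Without the replicate block no other call among the clock genes changed. Values not called that changed sign with 1 array or pool left out are given by their lowest and highest values. For the PHx response these were -0.17 and 0.69 for Bmal1 and -0.19 and 0.11 for Cry1, and for diet at 0 h -0.72 and 0.90 for Cry1. For diet at 24 h they were -0.0024 and 0.27 for Clock, -0.34 and 0.82 for Npas2, -0.19 and 0.082 for Per1, -0.10 and 0.50 for Per2, and -0.54 and 0.12 for Per3. For AM21 at 0 h they were -0.34 and 1.67 for Bmal1, -0.12 and 0.71 for Clock, -0.088 and 0.18 for Per1, -0.77 and 0.23 for Per2, -0.46 and 0.021 for Per3, and -1.14 and 0.47 for Cry1. For AM21 at 24 h they were -0.87 and 0.30 for Npas2, -0.46 and 0.14 for Per2, -0.15 and 0.51 for Per3, -0.95 and 0.18 for Cry1, and -0.19 and 0.42 for Cry2. The number of all genes called moved as well: 75 by diet at 0 h, against 3 with no level minimum, 17 with quantile normalization, 236 with a trend and 4 to 101 with 1 array left out; 40 by diet averaged over time, against 11 with no level minimum, 88 with a trend, 285 with all 2-way interactions and 0 to 18 with 1 array left out; and 46 for the difference of the PHx response between diets, against 16 with a minimum of 6, 226 with a trend and 0 with no level minimum, quantile normalization or this interaction alone. Counts of 0 became 57 by diet at 24 h, 1 and 4 by AM21 at 0 h and 24 h and 51 for the response with AM21 under a trend, up to 7 by diet and 4 by AM21 at 24 h with 1 array left out, and 8 by AM21 averaged over time with all 2-way interactions. PHx called 2443, against 1466 to 1705 with 1 pool left out. The cause of these changes was not tested.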
